A study of Rattus norvegicus with 15 samples.

Results

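Retinas of MSCEPO-treated rats were compared with retinas of Sham rats after sodium iodate, a systemic toxin of the retinal pigment epithelium (RPE), the cell layer that supports the photoreceptors. The comparison held 6 of the 15 RNA-seq libraries of the series, 3 of each group, chosen by their labels: Sham1 to Sham3 and EPO1 to EPO3. All rats were wild-type Sprague-Dawley rats at postnatal week 12, and the retinas were taken on day 31 after the intravitreal injection. Both groups received 40 mg/kg sodium iodate after that injection. Sham eyes were injected with HBSS, the salt solution that carries the cells, and MSCEPO eyes with human Wharton's jelly mesenchymal stem cells that a lentivirus had made to express human erythropoietin together with a green fluorescent marker. The xenograft rats had dexamethasone at 2 mg/kg and then cyclosporin at 10 mg/kg per day, and the sources used here do not say whether the Sham rats had them too, so cells and drugs cannot be told apart here. The study calls the libraries of a group biological replicates, while the labels do not tie them to animals, so p-values rest on differences between libraries. Rats that had neither iodate nor cells (NT) and rats given the same cells without erythropoietin (MSC) entered the model and are named only where a value needs them. Each standard error (SE) and p-value used a spread pooled over all 4 groups in the model. It is therefore not the spread of the Sham and MSCEPO libraries alone.

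Vision in the rat rests on rods, whose outer segments hold stacks of light-sensitive discs. Light turns on the G protein transducin, transducin turns on the phosphodiesterase PDE6, and the fall in cyclic GMP closes the cation channel of the outer segment. RPE cells renew the chromophore and take up shed discs, so that their loss is followed by the death of photoreceptors. Müller glia and microglia respond to such damage, and erythropoietin signals through its receptor to JAK2 and STAT5, a route linked to cell survival in blood and nervous tissue.

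Expression is given as the deposited regularized log (rlog) value on the log2 scale, and each difference is the MSCEPO mean minus the Sham mean on that scale. Of 20375 genes listed, 15415 had a mean of at least log2(10) over the 6 libraries and were tested. Nxf2, with a mean of 3.33, lay just inside that limit, and Krt78, with 3.32, just outside. Since rlog values are shrunken, the differences of low genes are understated. The depth of the libraries is unknown from these values. The median library value lay between 8.63 and 8.75, and the median difference over all tested genes was 0.00, both with and without EPO3. EPO3 stood apart from the rest of its group. Its Euclidean distance over the tested genes was 94.6 to EPO1 and 86.7 to EPO2, against 37.0 between EPO1 and EPO2 and 31.8 to 36.4 between Sham libraries. Every comparison was therefore also made without EPO3. The defining markers of rods, cones, bipolar, amacrine and ganglion cells, Müller glia and RPE were above the limit in these libraries, and so were lens, corneal and immune cell markers. In bulk retina, fewer cells of a type and less RNA per cell cannot be told apart.

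With all 6 libraries, 1 gene was higher (0.00649% of those tested) and 6 were lower (0.0389%) in the MSCEPO retina by the test used throughout, limma's moderated test over 12 libraries with a Benjamini-Hochberg adjusted p under 0.05 and a difference over 2-fold. The small heat shock protein gene Hspb1 rose, while the photoreceptor-enriched genes Cds1 and Esrrb, the myosin gene Myh6 and the epithelial genes Muc4, Krt75 and Spink5 fell. Muc4, a membrane mucin of surface epithelia, had the widest gap, at 8.46, 8.73 and 8.65 in Sham and 5.74, 6.45 and 6.39 in MSCEPO retinas. Its difference was -2.42 ± 0.34 (SE, n = 3 per group, limma adjusted p = 0.0368). The groups did not overlap, and EPO3 lay between EPO1 and EPO2.

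Cds1, which makes the CDP-diacylglycerol needed for phosphoinositide synthesis, was 12.16, 12.04 and 12.03 in Sham and 11.13, 10.96 and 10.69 in MSCEPO retinas. This was a difference of -1.15 ± 0.11 and the smallest limma adjusted p of all genes, 0.00946. Esrrb, an orphan nuclear receptor of rods, was 10.66, 9.89 and 10.03 in Sham and 8.95, 8.82 and 8.74 in MSCEPO retinas, a difference of -1.35 ± 0.17 (limma adjusted p = 0.0341). For Cds1 and Esrrb the Sham mean was already below the NT mean, which was 12.8 for Cds1 and 11.4 for Esrrb, so the MSCEPO mean was farther from NT than Sham was. Myh6, a myosin heavy chain gene, was 8.79, 9.29 and 9.32 in Sham and 7.80, 7.94 and 7.86 in MSCEPO retinas, with a difference of -1.27 ± 0.17 (limma adjusted p = 0.0353). Its Sham and NT means, 9.13 and 9.23, differed by less than the Sham SD of 0.30.

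Krt75, an epithelial keratin, was 5.57, 6.17 and 5.66 in Sham and 4.39, 4.33 and 4.75 in MSCEPO retinas (-1.31 ± 0.18, limma adjusted p = 0.0368). Spink5, a protease inhibitor of stratified epithelium, was 4.80, 4.68 and 4.53 in Sham and 3.63, 3.61 and 3.63 in MSCEPO retinas (-1.05 ± 0.12, limma adjusted p = 0.0341). The Sham libraries had the higher values of these 3 epithelial genes also against NT, whose means were 6.83 for Muc4, 4.99 for Krt75 and 3.77 for Spink5.

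**Figure D1:**
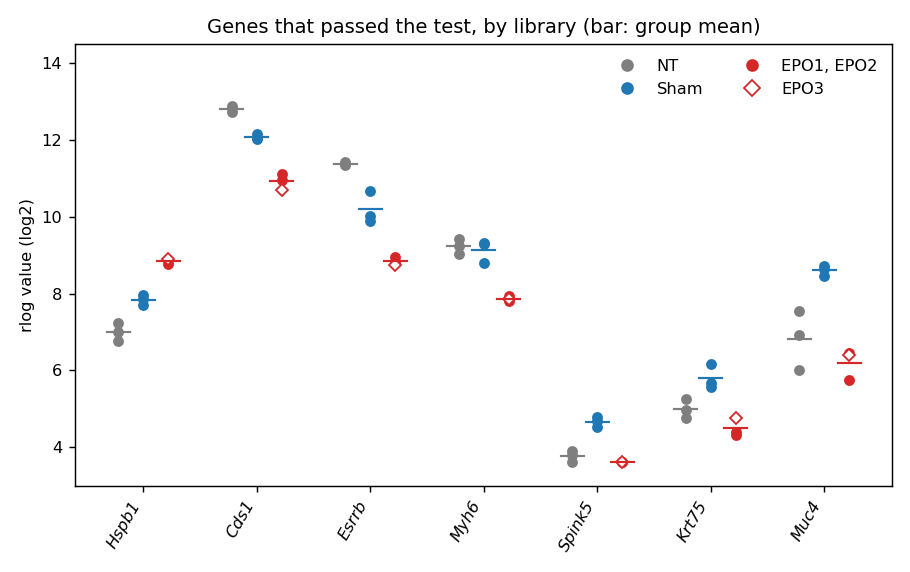
Level (rlog, log2; vertical axis) of the 7 genes that passed the test in each NT, Sham and MSCEPO library; each symbol is 1 library, the open diamond is EPO3 and the short bar is the group mean. The MSCEPO libraries lie above all Sham libraries for Hspb1 and below them for the other 6 genes, and EPO3 lies with EPO1 and EPO2; some symbols hide others.

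Another 6 genes met the adjusted p but not the fold. Qsox1, a sulfhydryl oxidase of the secretory pathway, was higher by 0.68, and the other 5 were lower: Mast2 by -0.92 (the gene nearest to the fold limit from outside, as Hspb1 at 1.01 was from inside), Pde6b by -0.88, Rbp3 by -0.86, Ankrd33b by -0.83 and Sema7a by -0.68. Rbp3 encodes the retinoid-binding protein of the matrix between photoreceptors and RPE. The number of genes that passed depended on single libraries. It was 4 without Sham1, 2 without Sham2, 1 without EPO1 and 103 without EPO3, while without Sham3 or without EPO2 limma called 0 genes, with 878 and 1219 genes at an unadjusted p under 0.05. Cds1 passed in 4 of these 6 reduced fits and Esrrb in 3, while Hspb1 passed in none of them.

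Without EPO3, 68 genes rose (0.441% of those tested) and 35 fell (0.227%), and the difference was over 2-fold upward in 346 genes and downward in 66. Of the 7 genes above, 6 passed again, and Hspb1, at 0.98, missed the fold. The added genes that rose were mostly ones in which EPO3 sat with Sham: in 59 of the 68 EPO3 was within or below the Sham range, and in 9 all 3 MSCEPO libraries were above all 3 Sham libraries. Among the 35 that fell, all 3 MSCEPO libraries were below all 3 Sham libraries in 23. The count was 58 without Sham1 and 65 without Sham2. Of 39 genes named here that passed without EPO3, 19 passed whichever Sham library was also left out. Those that passed in none of the 3 reduced fits were Lgals3, Nlrc5, Cd22, Plau, Clca4l, Mcpt1 and Trim21. The calls of Spp1, Mmp12 and Fbln2 were lost without Sham1 or Sham2, that of Krt12 without Sham2 or Sham3, and those of Hk2 and Il17rb without Sham1 or Sham3. Leaving out Sham1 ended those of Cds1, Spink5, Pde6b, Serping1 and Nim1k, leaving out Sham2 that of Krt80, and leaving out Sham3 that of S1pr3.

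Gene lists are described by counts and medians. Lists and members were chosen with earlier results of these data known, so no list count is independent evidence. For reference, 7.38% of all tested genes had every MSCEPO value above every Sham value and 6.81% had every value below. At an unadjusted limma p under 0.05, 3.33% were higher and 4.52% lower. Without EPO3 these shares were 20.7% and 19.2% for the genes without overlap and 8.37% and 7.71% for the genes at an unadjusted p under 0.05. Of the 42 lists, 27 had a median above 0.

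**Figure D2:**
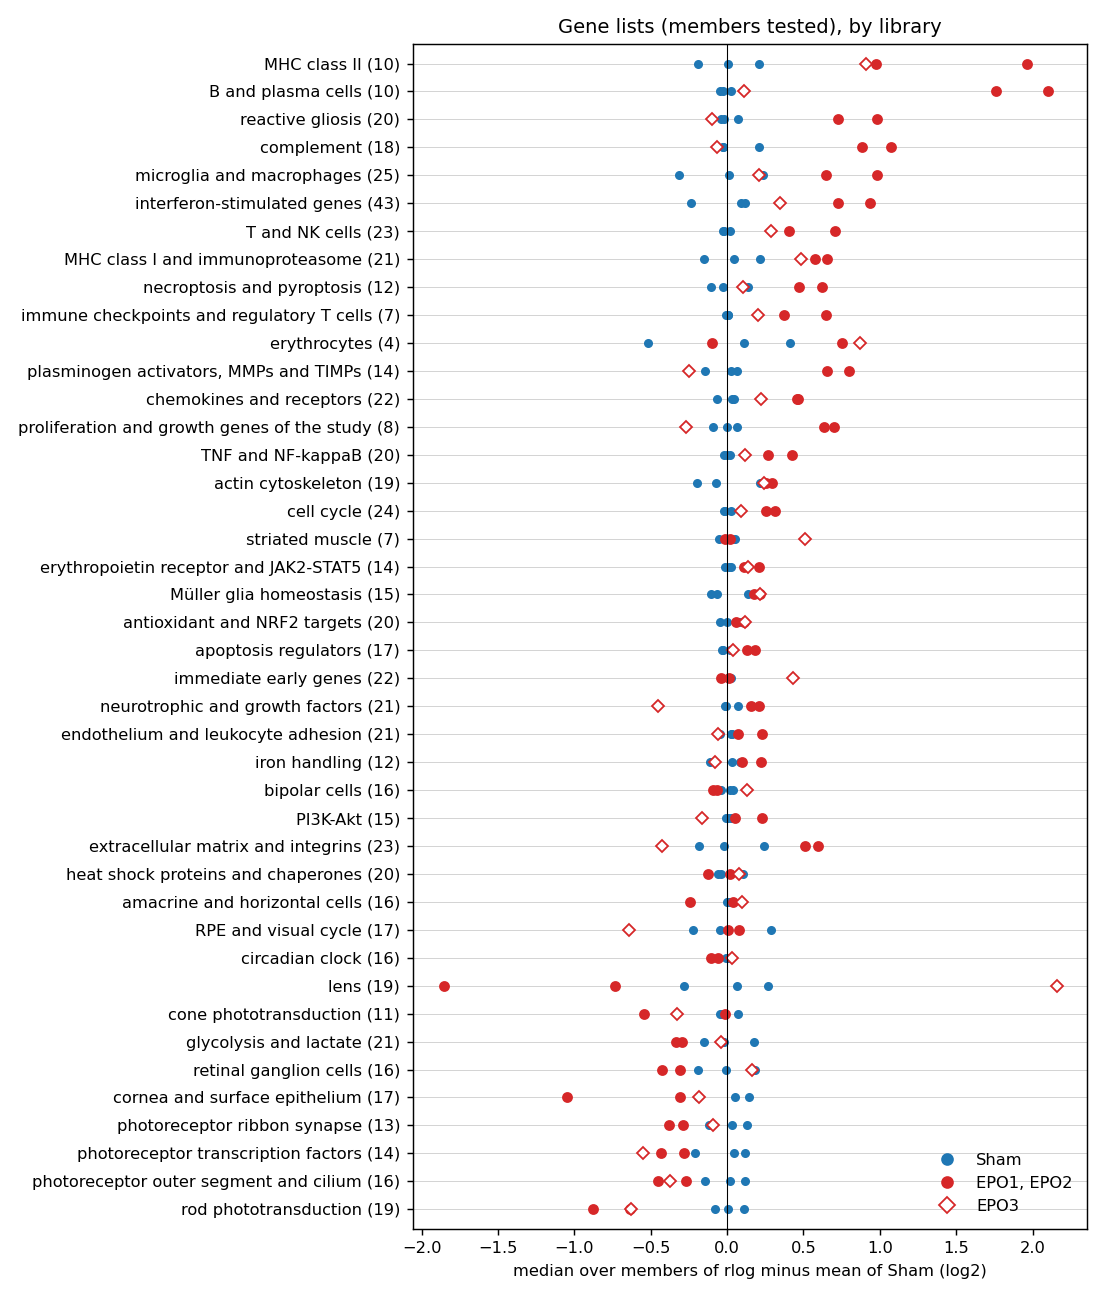
Median over the tested members of each of 42 gene lists of a library's rlog value minus the Sham mean (log2; horizontal axis), with the number of members in brackets; filled red circles are EPO1 and EPO2, open diamonds EPO3 and blue circles the Sham libraries. Photoreceptor lists lie left of 0 in EPO1, EPO2 and EPO3, the MHC class II median lies at 1.96, 0.98 and 0.91, and for reactive gliosis, complement, B cells and lens EPO3 lies apart from EPO1 and EPO2.

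The transcripts of rod phototransduction were lower in MSCEPO than in Sham retinas. The members share the rod outer segment, and in 14 of the 19 tested (of 20 listed) every MSCEPO library was below every Sham library, in none above. All 19 differences were below 0, with a median of -0.70 (-0.76 without EPO3), and 16 had an unadjusted limma p under 0.05. Relative to the Sham mean the median member was at -0.64, -0.88 and -0.63 in EPO1, EPO2 and EPO3 and at 0.57 to 0.75 in the NT libraries. Rod transcripts were thus lower in all 3 MSCEPO libraries, EPO3 included. With all libraries no rod gene passed both limits, and without EPO3 Gnat1, Guca1b and Pde6b were among those that fell.

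Gnat1, the rod transducin alpha subunit, was 16.99, 16.83 and 16.45 in Sham and 15.19, 14.71 and 16.28 in MSCEPO retinas, with EPO3 close to the lowest Sham library. Its difference was -1.36 ± 0.33 (limma adjusted p = 0.237) and -1.81 ± 0.21 without EPO3 (limma adjusted p = 0.00524).

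The catalytic PDE6 gene Pde6b was 14.47, 14.29 and 14.27 in Sham and 13.40, 13.28 and 13.70 in MSCEPO retinas, a difference of -0.88 ± 0.13 (limma adjusted p = 0.0368) that was just over 2-fold without EPO3 (limma adjusted p = 0.00362). Its partner Pde6a was lower by -0.65 and the inhibitory subunit gene Pde6g by -0.58, neither of which passed. Of the shut-off and recovery genes, the receptor kinase gene Grk1 was 12.37, 12.24 and 12.30 in Sham and 11.45, 11.44 and 10.73 in MSCEPO retinas (-1.10 ± 0.17, limma adjusted p = 0.0525). Guca1b, a calcium sensor that activates guanylate cyclase, was 14.02, 13.84 and 13.58 in Sham and 12.56, 12.80 and 13.28 in MSCEPO retinas. Its difference was -0.93 with all libraries and -1.13 ± 0.14 without EPO3 (limma adjusted p = 0.00582). Its neighbour in function Guca1a was -0.66, and -0.99 ± 0.11 without EPO3 (limma adjusted p = 0.00408), and its EPO3 value of 12.71 lay inside the Sham range. Sag, which encodes rod arrestin, was lower by -0.87, the transducin subunit genes Gnb1 and Gngt1 by -0.88 and -0.50, and Slc24a1, the rod sodium/calcium exchanger gene, by -0.70. EPO3 was the highest MSCEPO library for Gnat1, Guca1b and Sag and by far the lowest for Rgs9, the GTPase activator of transducin, at 9.90 against 12.16 and 11.86 in EPO1 and EPO2.

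**Figure D3:**
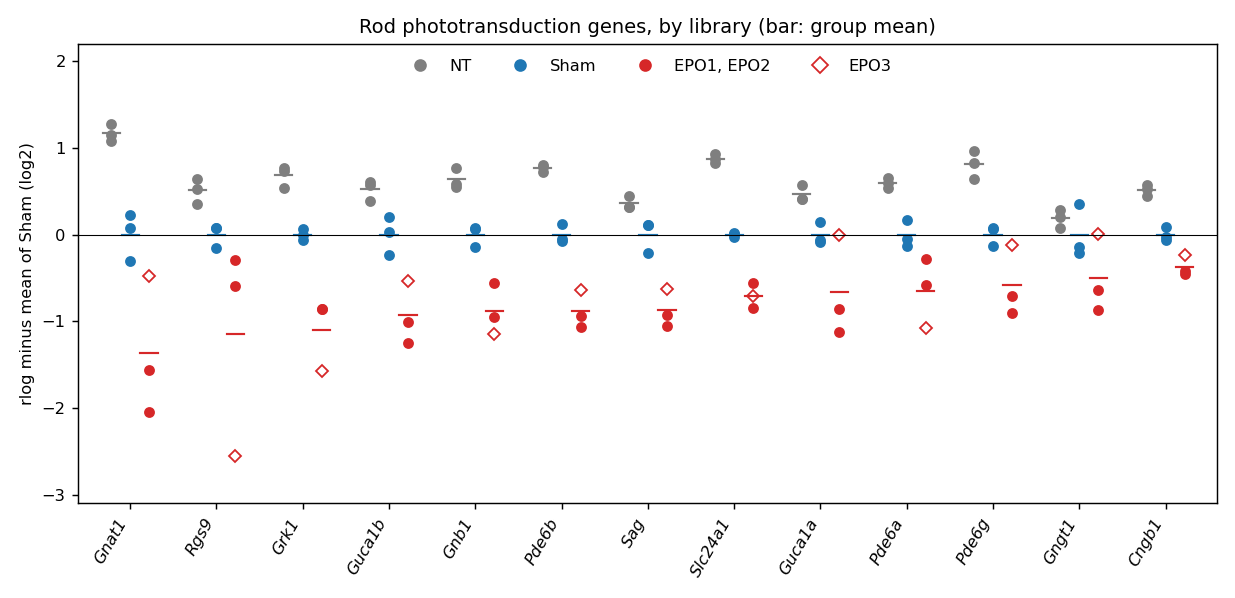
Rlog value minus the Sham mean (log2; vertical axis) of the 13 rod phototransduction genes named here in each NT, Sham and MSCEPO library, ordered by the MSCEPO mean; symbols are libraries, the open diamond is EPO3 and the bar is the group mean. The 3 MSCEPO values of Pde6b lie below all Sham values, and the NT means lie above the Sham mean for every gene.

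The 250 bases before the start of these genes, taken from the RefSeq promoters of the GRCr8 rat assembly (the values themselves were made on Rnor_6.0), were searched for TAATCC, the letters bound by the photoreceptor homeodomain factor CRX. Matches were sought on both strands, and each motif was counted on its own. Matches of different motifs overlapped in 37 of 27457 promoters. Of the 14 rod genes with a promoter, 5 (35.7%) held TAATCC, against 6.33% of all promoters and 4.77% of those of tested genes. In the genes that fell without EPO3 it was in 2 of 21 with a promoter (9.52%), and in those that rose in 1 of 25 (4%). The promoters of Cngb1, whose product is the modulatory subunit of the rod channel, and Guca1a are shown because they hold these letters close to the start. The capitals mark TAATCC or its reverse complement, and the strands given are those of the genes.

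Cngb1, chr19:9732566-9732645, plus strand: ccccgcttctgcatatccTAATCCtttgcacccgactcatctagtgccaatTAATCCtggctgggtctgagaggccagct

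Guca1a, chr9:21086522-21086641, plus strand: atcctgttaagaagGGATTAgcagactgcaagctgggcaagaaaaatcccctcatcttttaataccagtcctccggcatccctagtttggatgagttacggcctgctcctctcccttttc

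Cngb1 held 2 matches, the nearer 23 bases before the start, and Guca1a 1 match at 100 bases. The level of Cngb1 was 13.52, 13.40 and 13.37 in Sham and 12.98, 13.00 and 13.19 in MSCEPO retinas, a difference of -0.37 (limma adjusted p = 0.267). No match in Pde6b, Guca1b or Sag says only that these letters are not in the bases searched.

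Genes of the photoreceptor beyond the cascade were lower as well. The transcription factor list (14 of 14 tested) had a median of -0.44 (-0.35 without EPO3). All 14 differences were below 0, and in 9 members all MSCEPO values were below all Sham values. Esrrb led it. Crx, the homeodomain factor named above, was 12.05, 11.76 and 12.06 in Sham and 11.35, 11.26 and 10.82 in MSCEPO retinas (-0.81 ± 0.14, limma adjusted p = 0.103). Nrl, which sets the rod fate, was -0.69, its target Nr2e3 -0.50 and the MADS factor Mef2c -0.76, and none of these passed. Outer segment and cilium genes (16 tested of 19) had a median of -0.51 (-0.34 without EPO3), with 7 members lower without overlap. Among them the retinoid flippase gene Abca4 was lower by -0.69 (limma adjusted p = 0.0947). Rdh12 and Rdh8, which reduce retinal, were -0.66 and -0.50, and the axonemal gene Rp1 was -0.70. Ribbon synapse genes (13 tested of 14) had a median of -0.27 (-0.33 without EPO3) and 4 members lower without overlap. Among them were Slc17a7, the glutamate loader of photoreceptor vesicles, at -0.43, and Dlg4 at -0.38. Cabp4 and Unc119 were -0.60 and -0.46. Their EPO3 values lay inside the Sham range, and without EPO3 the differences were -0.89 (limma adjusted p = 0.00965) and -0.70 (limma adjusted p = 0.00884), still under 2-fold.

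Cone genes had smaller differences. The 11 tested (of 11) had a median of -0.23 (-0.24 without EPO3), and 2 were lower without overlap. Opn1mw, the medium-wavelength opsin gene, was 8.34, 8.21 and 8.19 in Sham and 7.64, 7.37 and 7.03 in MSCEPO retinas (-0.90 ± 0.16, limma adjusted p = 0.106). The cone arrestin gene Arr3 was -0.75. Opn1sw, the short-wavelength opsin gene, was 9.67, 7.91 and 8.65 in the 3 MSCEPO libraries and 8.74 to 9.20 in Sham, so the MSCEPO libraries spanned the whole Sham range.

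Marker lists of the inner retina differed in how they stood to Sham. Bipolar cell genes (16 tested of 17) had a median of 0.01 and amacrine and horizontal cell genes (16 of 17) of -0.06, with 3 and 2 members lower without overlap and none higher. For the bipolar list EPO3 was below the Sham range in 7 members and above it in 8. Trpm1, the channel of the bipolar cell light response, was 12.90 and 12.74 in EPO1 and EPO2 and 11.13 in EPO3, against 12.70 to 13.03 in Sham, and the kinase gene Prkca was likewise lowest in EPO3, at 10.23. Lrit3, a member of the bipolar list needed at the synapse between rods and bipolar cells, was -0.81. Much of that came from EPO3 (-0.39 without it), and bulk values do not tell which side of the synapse the transcript came from. Calb2, which marks amacrine and ganglion cells, was -0.55 and -0.78 ± 0.16 without EPO3 (limma adjusted p = 0.0426). Ganglion cell genes (16 of 16) had a median of -0.24 and -0.35 without EPO3. The difference was below 0 in 15 of the 16, and 3 were lower without overlap. Without EPO3, 12 were lower without overlap and 7 had an unadjusted limma p under 0.05. Relative to the Sham mean the median ganglion cell gene was at -0.43 and -0.31 in EPO1 and EPO2 and at 0.16 in EPO3. The ganglion cell marker Rbpms was -0.18 and the neurofilament gene Nefl -0.37, and Nrn1 reached -0.75 without EPO3 (limma adjusted p = 0.0324).

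RPE and visual cycle genes (17 tested of 18) had a median of -0.12 and 0.04 without EPO3, and no member was without overlap. EPO3 stood apart here too. Relative to the Sham mean the median member was at 0.00 and 0.08 in EPO1 and EPO2 and at -0.64 in EPO3, which was below the Sham range in 13 of the 17 members. Rpe65, the isomerase of the visual cycle, was 10.47, 10.47 and 11.48 in Sham and 10.66, 11.35 and 9.95 in MSCEPO retinas, a difference of -0.15 ± 0.54 (limma adjusted p = 0.958), against an NT mean of 11.9. Best1 was 0.26. Mertk, the receptor for disc uptake, was 10.42 and 10.40 in EPO1 and EPO2 and 9.53 in EPO3, where the Sham values were 9.75, 9.78 and 9.75. It was 0.65 ± 0.11 higher without EPO3 (limma adjusted p = 0.0191), which is under 2-fold.

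Glial genes were higher. Of the 20 reactive gliosis genes (20 tested), 18 had a difference above 0, 6 were higher without overlap, and the median was 0.67 and 0.93 without EPO3. EPO3 differed here: relative to the Sham mean the median member was at 0.73 and 0.98 in EPO1 and EPO2 and at -0.10 in EPO3. Without EPO3, Serpina3n, Nes, Cp and S1pr3 rose, and 17 of the 20 had an unadjusted limma p under 0.05. Serpina3n, an acute-phase protease inhibitor of reactive astrocytes, was 9.43, 9.79 and 9.76 in Sham and 13.32, 13.33 and 9.59 in MSCEPO retinas. EPO3 had the Sham level, and the difference was 2.42 ± 0.84 with it (limma adjusted p = 0.546) and 3.66 ± 0.42 without it (limma adjusted p = 0.00477).

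Nes, the intermediate filament nestin, was 7.97, 8.04 and 8.07 in Sham and 9.49, 9.70 and 8.18 in MSCEPO retinas, a difference of 1.57 ± 0.10 without EPO3 (limma adjusted p = 0.000322). Cp, the ferroxidase ceruloplasmin, rose by 1.36 without EPO3, and S1pr3, a sphingosine 1-phosphate receptor, by 1.01. A smaller group did not depend on EPO3. Cebpd, an acute-phase transcription factor, was 8.78, 8.87 and 8.84 in Sham and 9.78, 9.71 and 10.09 in MSCEPO retinas (1.03 ± 0.16, limma adjusted p = 0.0539). Lcn2, the siderophore-binding lipocalin, was 10.66, 10.82 and 10.91 in Sham and 11.69, 11.88 and 11.66 in MSCEPO retinas (0.95, limma adjusted p = 0.203). The NF-kappaB coactivator gene Bcl3 was higher by 0.76. Gfap, the classical marker of Müller cell gliosis, was 12.95, 13.53 and 12.80 in Sham and 13.84, 14.13 and 13.43 in MSCEPO retinas. Its groups overlapped and its difference of 0.71 ± 0.26 did not pass (limma adjusted p = 0.586), while the NT mean was 9.72.

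Genes of Müller glia homeostasis (15 tested of 16) had a median of 0.17, with 4 higher without overlap and 0.17 to 0.22 in the 3 MSCEPO libraries. Notch1 was 0.35, the thyroid hormone-binding gene Crym 0.47 and the water channel gene Aqp4 0.56, at 13.01, 12.41 and 12.26 in MSCEPO retinas against 11.77 to 12.15 in Sham. None of them passed.

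Complement and myeloid genes had higher means in the MSCEPO retinas, and complement genes were high in EPO1 and EPO2 rather than in EPO3. The complement list (18 of 18) had a median of 0.66 and 1.02 without EPO3, and 17 members had a difference above 0. Relative to the Sham mean the median member was at 1.08 and 0.88 in EPO1 and EPO2 and at -0.064 in EPO3, which was below the Sham range in 6 members. In 7 the MSCEPO values were all higher, and in 1, the membrane inhibitor gene Cd59 (-0.15), all lower. The microglia and macrophage list (25 of 25) had a median of 0.65, all 25 differences were above 0, and 8 were higher without overlap, with the median member at 0.98, 0.65 and 0.21 in EPO1, EPO2 and EPO3. The C1q genes, which start the classical pathway, were among those higher in EPO3 too. C1qa was 10.29, 10.41 and 9.36 in Sham and 11.14, 10.90 and 11.06 in MSCEPO retinas (1.01 ± 0.37, limma adjusted p = 0.572), and C1qb and C1qc were higher by 1.06 and 1.07. C4a was higher without overlap as well. Serping1, the C1 inhibitor gene, was 10.59, 11.22 and 11.03 in Sham and 12.37, 12.93 and 11.10 in MSCEPO retinas, with EPO3 inside the Sham range, and it rose by 1.71 ± 0.28 without EPO3 (limma adjusted p = 0.0169).

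Of the myeloid genes Lgals3 and Spp1, both of phagocytic microglia, rose without EPO3, by 1.18 and 1.13. Aif1, which encodes IBA1, was 8.77, 9.13 and 8.34 in Sham and 9.98, 9.40 and 9.58 in MSCEPO retinas (0.91 ± 0.41, limma adjusted p = 0.635). The leukocyte marker Ptprc was 7.64, 7.77 and 7.47 in Sham and 10.31, 9.44 and 7.94 in MSCEPO retinas, so all MSCEPO values were higher but unevenly so (1.60 ± 0.64, limma adjusted p = 0.614).

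The list medians of antigen presentation genes were above the Sham mean in all 3 MSCEPO libraries, though not every member was. The MHC class II list (10 of 10) had a median of 1.44, the highest of all lists with all libraries, and 8 members higher without overlap. Without EPO3 it was 1.61, under the 1.93 of the B and plasma cell list. The median member was 1.96, 0.98 and 0.91 above the Sham mean in EPO1, EPO2 and EPO3. RT1-Ba, a class II alpha chain gene, was 9.41, 9.67 and 9.06 in Sham and between 10.83 and 12.04 in MSCEPO retinas, where EPO1 was highest. The difference of 1.91 ± 0.72 did not pass (limma adjusted p = 0.586). RT1-DMa was higher by 1.67 under 1 identifier and lower by -0.53 under the other that carries the symbol, and the invariant chain gene Cd74 was higher by 1.49. RT1 genes are near-identical copies of each other, so reads could have been split between them. MHC class I and immunoproteasome genes (21 tested of 23) had a median of 0.56 and 9 higher without overlap. The light chain gene B2m was 12.88, 13.26 and 12.95 in Sham and 14.27, 13.91 and 13.78 in MSCEPO retinas (0.96, limma adjusted p = 0.62), and RT1-CE5 was higher by 0.93. Nlrc5, the class I transactivator, rose by 1.14 without EPO3, in which it was 5.99, below the Sham range.

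Interferon-stimulated genes (43 of 43) had a median of 0.63, 41 differences were above 0 and 2 below, and 20 members had all MSCEPO values above all Sham values, while none had all below. Gbp2, an interferon-induced GTPase, was 9.04, 9.68 and 9.69 in Sham and 10.67, 11.51 and 10.04 in MSCEPO retinas (1.27 ± 0.46, limma adjusted p = 0.564). Oasl2 was 8.11, 8.15 and 8.01 in Sham and 9.20, 9.29 and 8.51 in MSCEPO retinas (0.91, limma adjusted p = 0.612), and Gbp4 and Ifi47 were higher by 0.96 and 1.23. None of these genes passed.

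The core of the interferon response element was searched as GAAA and again GAAA with any 2 bases between them. Of the 32 interferon-stimulated genes that had a promoter, 20 (62.5%) held this core. It was in 3.29% of all promoters and 2.61% of those of tested genes. In the genes that rose without EPO3 it was in 3 of 25 with a promoter (12%), and in those that fell in 1 of 21 (4.76%). The promoters of Gbp2 and Oasl2 are shown because they hold this core, in capitals and in both as the reverse complement.

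Gbp2, chr2:234005667-234005726, plus strand: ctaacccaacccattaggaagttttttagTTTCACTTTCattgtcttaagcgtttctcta

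Oasl2, chr12:47383186-47383345, minus strand: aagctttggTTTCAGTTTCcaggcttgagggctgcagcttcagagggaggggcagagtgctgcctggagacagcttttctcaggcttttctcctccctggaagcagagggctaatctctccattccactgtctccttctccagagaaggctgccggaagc

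The match lay 21 bases before the start of Gbp2 and 141 bases before that of Oasl2. For NF-kappaB the letters GGGA followed by any 4 bases and CC were in 20% of the promoters of genes that rose and 28.6% of those that fell, beside 16.8% of all promoters and 22.1% of those of tested genes.

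Lymphocyte markers were low in Sham and NT and higher in MSCEPO retinas, most of all in EPO1. T and NK cell genes (23 of 30 passed the limit on low values) had a median of 0.57 with 15 higher without overlap. Cd3e, a subunit of the T cell receptor complex, was 4.16, 4.33 and 4.34 in Sham and 6.10, 5.00 and 5.18 in MSCEPO retinas (1.15 ± 0.78, limma adjusted p = 0.754), and the common gamma chain gene Il2rg was 5.16 to 5.55 in Sham and 6.04 to 7.61 in MSCEPO retinas. B and plasma cell genes (10 tested of 14) had a median of 1.32 and 1.93 without EPO3. The median member was 2.10 and 1.76 above the Sham mean in EPO1 and EPO2 and 0.11 above it in EPO3. Cd79a, of the B cell receptor, was 4.01, 4.30 and 4.14 in Sham and 7.43, 6.64 and 4.19 in MSCEPO retinas. Cd22, a B cell lectin, rose by 1.94 without EPO3 (limma adjusted p = 0.0386). Checkpoint and regulatory T cell genes (7 tested of 12) had a median of 0.46 with 3 higher without overlap.

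**Figure D4:**
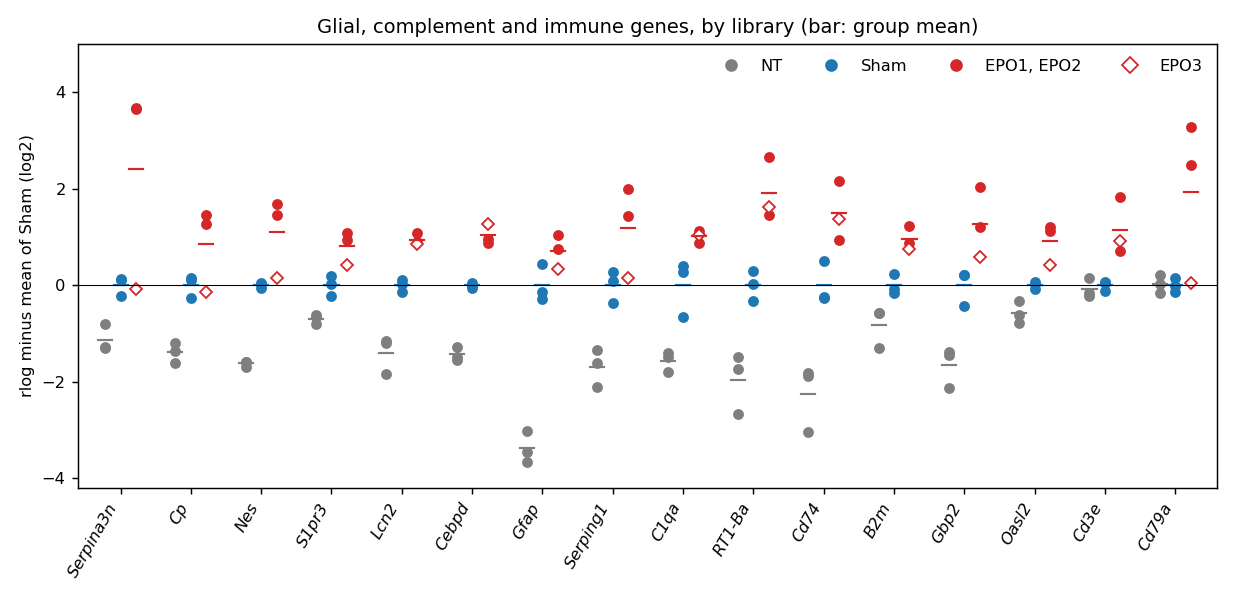
Rlog value minus the Sham mean (log2; vertical axis) of 16 glial, complement, antigen presentation, interferon and lymphocyte genes in each NT, Sham and MSCEPO library; symbols are libraries, the open diamond is EPO3 and the bar is the group mean. EPO3 lies with Sham for Serpina3n, Cp, Serping1 and Cd79a and with EPO1 and EPO2 for Cebpd, Lcn2, C1qa, RT1-Ba and B2m.

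Chemokine and receptor genes (22 tested of 29) had a median of 0.40 and 10 higher without overlap. The B cell attractant Cxcl13 was 7.80, 8.55 and 7.47 in Sham and 10.41, 9.48 and 9.49 in MSCEPO retinas (1.85 ± 0.75, limma adjusted p = 0.62), the interferon-induced Cxcl10 was higher by 0.93, and the monocyte attractant Ccl2 was 7.49 in EPO2 and 5.02 in EPO3, which was inside the Sham range of 4.86 to 5.14. Endothelial and adhesion genes (21 tested of 22) had a median of 0.07 with 3 higher without overlap. Those 3 included the lymphocyte integrin gene Itgb7 (0.84), and the adhesion molecule gene Icam1 was 0.54. TNF and NF-kappaB genes (20 tested of 22) had a median of 0.30, with 6 higher and 1 lower without overlap. The lower one was Tnfaip3, the A20 brake on NF-kappaB, at 10.27, 10.14 and 10.25 in Sham and 9.64, 9.59 and 8.72 in MSCEPO retinas (-0.90 ± 0.28, limma adjusted p = 0.453).

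Hspb1, the only gene that rose with all libraries, encodes the small heat shock protein HSP27 and was 7.71, 7.96 and 7.87 in Sham and 8.78, 8.87 and 8.90 in MSCEPO retinas. The 3 MSCEPO values lay within 0.12 of each other, and the difference was 1.01 ± 0.13 (limma adjusted p = 0.0352). The NT mean was 7.01 and the MSC mean 8.73, and MSCEPO and MSC differed by 0.12 (limma adjusted p = 0.803). Its promoter is shown because it is that of the riser and holds the heat shock element letters GAANNTTC (in capitals), which read the same on both strands.

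Hspb1, chr12:26432302-26432451, minus strand: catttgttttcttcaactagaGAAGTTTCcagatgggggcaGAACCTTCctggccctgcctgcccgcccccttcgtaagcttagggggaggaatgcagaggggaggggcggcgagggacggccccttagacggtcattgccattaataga

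The promoter held 2 matches, the nearer 101 bases before the start. Of the 17 heat shock genes with a promoter, 10 (58.8%) held the letters, against 7.02% of all promoters and 4.76% of those of tested genes. In the genes that rose without EPO3 they were in 2 of 25 with a promoter (8%), and in those that fell in 2 of 21 (9.52%). The other heat shock and chaperone genes (20 tested of 21) did not move with Hspb1: the list median was -0.03, with 3 higher and 3 lower without overlap. Hspa2 was higher by 0.57, the constitutive Hspa8 lower by -0.99, and the inducible Hspa1a was 11.33, 10.94 and 10.69 in Sham and 10.63, 10.52 and 6.99 in MSCEPO retinas, so that its difference of -1.60 rested on EPO3 (-0.41 without it). Under a further identifier with the symbol Hspa1a, EPO3 was the highest library at 11.15 and the difference was -0.20, and reads of such near-identical copies could have been split between them. Cryab, a small heat shock protein of glia and lens, was 11.77 and 12.47 in EPO1 and EPO2 and 13.99 in EPO3, against 12.51 to 13.40 in Sham. In EPO3 the lens genes were higher as well, and their part in the Cryab value was not tested.

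The rat Epo gene stayed at 0.57 to 0.73 in Sham and MSCEPO libraries, below the limit on low values. The transgene is human, and its transcript was not quantified here. Rat Epor was 3.75, 3.77 and 3.72 in Sham and 3.58, 3.66 and 3.81 in MSCEPO retinas, a difference of -0.07 ± 0.08 (limma adjusted p = 0.869). The erythropoietin receptor and JAK2-STAT5 list (14 tested of 16) had a median of 0.18, with 3 higher and 1 lower without overlap. The lower one, the transferrin receptor gene Tfrc, was -0.32. The STAT5 target Socs2 was 6.81, 6.88 and 6.96 in Sham and 7.19, 7.16 and 7.09 in MSCEPO retinas (0.27, limma adjusted p = 0.652), and the phosphatase gene Ptpn6, which leukocytes express, was 0.87. PI3K-Akt genes (15 of 15) had a median of -0.02 and 0.14 without EPO3. Pik3r1, the regulatory subunit p85 alpha, rose by 1.15 without EPO3, where it was 10.36 and 10.76, while EPO3, at 8.39, was below the Sham range of 9.24 to 9.58.

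The study named 8 proliferation and growth genes, chosen on these samples, so their direction here is not independent evidence. Of these 8, Hspb1 rose, 7 had a difference above 0, and the median was 0.34 and 0.67 without EPO3, where all 8 had an unadjusted limma p under 0.05. Ccnd1, the cyclin of G1 entry, was 9.33, 9.99 and 9.80 in Sham and 10.69, 10.97 and 9.68 in MSCEPO retinas (0.74 ± 0.32, limma adjusted p = 0.62). Ccnd2 was 10.21 and 10.20 in EPO1 and EPO2 and 8.78 in EPO3, against 9.73 to 9.78 in Sham, so its difference was -0.02 with EPO3 and 0.45 without it. Ccne2 was 0.26, Cdk6 0.21, Nfatc1 0.42 and Plce1 0.09, and none of these passed in either fit. Passing here takes the fold limit as well as the adjusted p, on shrunken values. The study called these genes significant by an adjusted p from a different test. A gene that did not pass here therefore does not contradict that call. Plau, the urokinase gene, was 4.96, 5.10 and 5.13 in Sham and 6.10, 6.65 and 4.80 in MSCEPO retinas, and it rose by 1.31 ± 0.22 without EPO3 (limma adjusted p = 0.0196).

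Cell cycle genes (24 tested of 25) had a median of 0.26, with 9 higher without overlap and none lower. Mki67 was 5.47, 5.67 and 6.02 in Sham and 7.90, 7.35 and 5.86 in MSCEPO retinas (1.32 ± 0.65, limma adjusted p = 0.661), and Top2a was higher by 1.37. Lymphocyte markers were highest in the same library, EPO1, and their part in these values was not tested. Apoptosis regulators (17 tested of 20) had a median of 0.11, with 4 higher and 2 lower without overlap. The pro-apoptotic gene Bmf was -0.74. Necroptosis and pyroptosis genes (12 tested of 13) had a median of 0.47, all 12 were above 0, and 3 were higher without overlap, among them the interleukin gene Il18 at 6.41, 6.75 and 6.50 in Sham and 7.63, 7.80 and 7.01 in MSCEPO retinas (0.93 ± 0.31, limma adjusted p = 0.536). Nlrp3, the inflammasome sensor, was 0.61.

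Matrix and protease genes split by library. Extracellular matrix and integrin genes (23 of 23) had a median of -0.03 with all libraries and 0.50 without EPO3. No member was without overlap, since EPO3 was below the Sham range in 18 of the 23. Fn1, fibronectin, was 9.83, 9.73 and 9.68 in Sham and 11.35, 10.87 and 8.90 in MSCEPO retinas. Plasminogen activators, matrix metalloproteases and their inhibitors (14 tested of 16) had a median of 0.45 and 0.75 without EPO3. The macrophage elastase gene Mmp12 was 4.50, 4.47 and 4.83 in Sham and 7.30, 6.34 and 4.52 in MSCEPO retinas and rose by 2.22 ± 0.36 without EPO3 (limma adjusted p = 0.0165). Timp1 (0.77) and Mmp3 (1.56) were the 2 members that were higher without overlap.

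Neurotrophic and growth factor genes (21 tested of 24) had a median of 0.09, with 3 higher and 1 lower without overlap. The median member was at 0.21 and 0.16 in EPO1 and EPO2 and at -0.45 in EPO3, relative to the Sham mean. EPO3 was below the Sham range in 11 members. Cntf, ciliary neurotrophic factor, was 8.69, 8.63 and 8.72 in Sham and 9.57, 9.65 and 9.19 in MSCEPO retinas. The difference was 0.79 ± 0.15 (limma adjusted p = 0.114) and 0.93 ± 0.13 without EPO3 (limma adjusted p = 0.0111), under 2-fold in both. Antioxidant genes (20 tested of 21) had a median of 0.13, and heme oxygenase 1, Hmox1, was 7.60, 7.67 and 7.43 in Sham and 8.38, 8.02 and 8.23 in MSCEPO retinas (0.64, limma adjusted p = 0.474). Iron handling genes (12 tested of 13) had a median of 0.06, with Lcn2 and Cp high and Tfrc low as given above.

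Glycolysis and lactate genes (21 of 21) had a median of -0.23, with 6 lower and none higher without overlap. Hk2, the hexokinase of photoreceptors, was 13.24, 12.49 and 12.64 in Sham and 11.95, 11.60 and 12.40 in MSCEPO retinas. It was -0.81 with all libraries and fell by 1.01 without EPO3 (limma adjusted p = 0.0401). The lactate transporter gene Slc16a1 was -0.55 ± 0.11 (limma adjusted p = 0.133) and the pyruvate kinase gene Pkm -0.53. Rod genes were lower in the same libraries, and their part in these values was not tested. Circadian clock genes (16 of 16) had a median of -0.14, with 3 lower without overlap. Arntl, the BMAL1 gene, was 11.13, 11.16 and 11.08 in Sham and 10.70, 10.45 and 10.43 in MSCEPO retinas (-0.60 ± 0.09, limma adjusted p = 0.0539), and the labels give no hour of collection. Immediate early genes (22 of 22) had a median of 0.09. The median member was at -0.04, 0.01 and 0.43 in EPO1, EPO2 and EPO3, relative to the Sham mean. EPO3 was above the Sham range in 16 members. Without overlap, 4 members were higher and 1 was lower. The lower one was the neuronal activity gene Npas4 (-0.32), and Ier3 was 0.42. Actin cytoskeleton genes (19 of 19) had a median of 0.26, with 7 higher and 2 lower without overlap. Rac2, a GTPase of blood cells, was 1.26, and the smooth muscle actin gene Acta2 was -1.49, with 7.38 in EPO3 against 9.25 and 9.60 in EPO1 and EPO2.

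Keratins of surface epithelium and the mucin gene Muc4 were among the genes that fell, while their list as a whole was mixed. Of the cornea and surface epithelium list (17 tested of 19) 6 members fell without EPO3, beside 0.227% of all tested genes. Members of this list, like those of the other lists, were chosen with earlier results of these data known, so that count is not independent evidence. The list median was -0.26, with 12 differences below 0 and 5 above. EPO3 was within or above the Sham range in all but 5 members. The corneal crystallin gene Aldh3a1 overlapped between the groups (-0.26). In 3 members all MSCEPO values were lower, and in 1, the mucin gene Muc1 (0.16), all were higher. Krt12, the corneal keratin, was 9.09, 10.95 and 10.33 in Sham and 5.94, 6.49 and 6.71 in MSCEPO retinas, a difference of -3.75 ± 0.62 (limma adjusted p = 0.0651) and -3.91 without EPO3 (limma adjusted p = 0.0258). Krt5, the basal keratin, was 8.28, 10.21 and 9.55 in Sham, 5.35 and 5.60 in EPO1 and EPO2 and 8.87 in EPO3, and it fell by 3.87 without EPO3. Outside the list, Krt13 (-3.36), Krt4 (-2.96), Clca4l (-2.39), Calml3 (-2.29) and Krt80 (-2.20) also fell without EPO3, and Lamb3 of the list fell by 1.48. Relative to the Sham mean the median member of the list was at -1.05, -0.31 and -0.19 in EPO1, EPO2 and EPO3, and at -0.78 to -0.30 in the NT libraries. Whether other eye tissue entered the samples was not tested.

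Lens genes set EPO3 apart. Relative to the Sham mean the median of the 19 tested (of 21) was at -1.86 and -0.74 in EPO1 and EPO2 and at 2.16 in EPO3, so the list difference of -0.16 averaged opposite values and became -1.32 without EPO3. No lens member was without overlap. The genes in which EPO3 lay farthest above EPO1 and EPO2 were Crygb (6.76 above their mean), Crygd, Crygc, Lgsn and Bfsp1, which encode crystallins and lens fiber proteins. Crygb was 9.67, 9.21 and 9.52 in Sham, 6.93 and 7.08 in EPO1 and EPO2 and 13.77 in EPO3. Beside the lens genes, the lower reactive gliosis and matrix values of EPO3 stand in the same library, and whether they share a source was not tested.

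**Figure D5:**
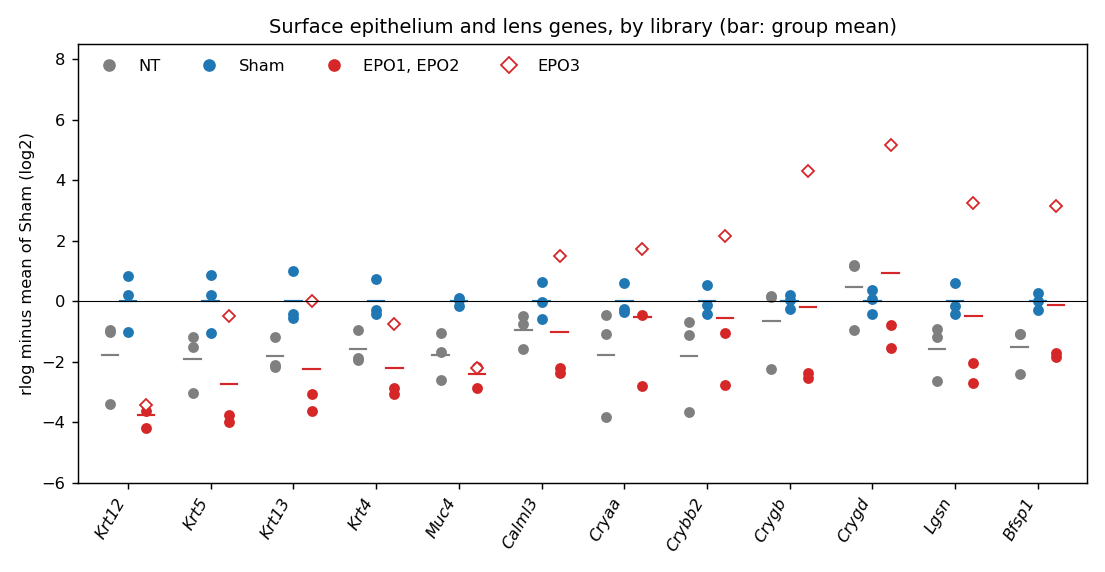
Rlog value minus the Sham mean (log2; vertical axis) of 6 surface epithelium genes and 6 lens genes in each NT, Sham and MSCEPO library; symbols are libraries, the open diamond is EPO3 and the bar is the group mean. EPO1 and EPO2 lie below the Sham mean for all 12 genes, whereas EPO3 lies above it for Calml3 and the 6 lens genes, at it for Krt13, and near EPO1 and EPO2 for Krt12 and Muc4.

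Striated muscle genes (7 tested of 10) had a median of 0.21. Beside Myh6, the related Myh7 was lower by -0.64 ± 0.14 (limma adjusted p = 0.19), while the troponin gene Tnnt2 was higher by 0.51 (limma adjusted p = 0.222), each without overlap. Erythrocyte genes (4 tested of 8) had a median of 0.45, at 0.75, -0.10 and 0.87 in EPO1, EPO2 and EPO3, with the globin gene Hba-a2 at 8.60, 7.63 and 8.68 against 7.16 to 8.10 in Sham.

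Outside the lists, further genes with a symbol rose without EPO3. Mcpt1, a mast cell protease, was 4.22, 4.23 and 4.25 in Sham and 9.56, 8.15 and 4.23 in MSCEPO retinas, which gave 4.62 ± 0.78 without EPO3 (limma adjusted p = 0.0191), with EPO3 at the Sham level. Scn7a, a sodium channel of glia, was 10.76 and 10.14 in EPO1 and EPO2 and rose by 2.36. Fbln2 (1.75), the filamin gene Flnc (1.24), Casp12 (1.17) and Trim21 (1.08) rose as well, and in all 4 EPO3 was within or below the Sham range. Il17rb rose by 1.26, and there EPO3, at 7.68, was above the highest Sham value of 7.47. Serinc4 fell by 1.19 (limma adjusted p = 0.0011) and the kinase gene Nim1k by 1.01, both without overlap in all libraries. Of the 68 risers, 37 had no symbol in the tables used here, and in 32 of those EPO3 was within or below the Sham range. The widest rises belonged to 2 of them: ENSRNOG00000049829 was 9.80, 8.86 and 11.07 in Sham, 15.51 and 14.28 in EPO1 and EPO2 and 9.21 in EPO3, and ENSRNOG00000034190 was 8.30, 8.22 and 8.85 in Sham, 14.46 and 12.37 in EPO1 and EPO2 and 8.18 in EPO3.

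MSCEPO retinas were also set against MSC retinas, which had the same cells without the erythropoietin transgene, to ask whether the values above differed from those with cells alone. Among all 15415 genes 1 passed in either direction (0.00649%), ENSRNOG00000050489, at 5.56, 5.43 and 5.75 in MSC, 3.86, 3.89 and 3.51 in MSCEPO and 3.46, 3.49 and 3.46 in Sham libraries. It differed by -1.83 from MSC (limma adjusted p = 0.000105). Among the 200 genes chosen for description 0 passed by limma, with a smallest adjusted p of 0.795. At an unadjusted limma p under 0.05 there were 36 of them (18%), against 475 (3.08%) of all tested genes. Many of the 200 were chosen on values of the same MSCEPO libraries. A p that misses the threshold does not show that both treatments act alike. Side by side, the MSC mean of Gnat1 was 15.6 and that of Hspb1 8.73, where the MSCEPO means were 15.4 and 8.85. Gnat1 and Hspb1 do not stand for the other genes, and the names and directions of the 36 are not given here.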

How the data were processed

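Retinal RNA libraries (QIAseq stranded mRNA kit, paired-end, Illumina NextSeq) of all 5 groups were used as deposited. Per the labels and methods, the authors quantified reads against Rnor_6.0 with Salmon 1.1.0 and turned the gene estimates into DESeq2 rlog values on the log2 scale, which shrink low genes toward a common value. A series-wide abundance table (15 sample columns) was not used.

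Genes with a mean rlog of at least log2(10) over the Sham and MSCEPO libraries were kept. limma 3.58.1 (R 4.3.3) was fitted to the 12 NT, Sham, MSC and MSCEPO libraries with a variance trend, and p-values were Benjamini-Hochberg adjusted over all 15415 genes. A gene passed at an adjusted p under 0.05 and a difference over 1. The whole fit was repeated without EPO3. On simulated data limma recovered 200 of 200 changed genes with 2 false calls. The changed genes were drawn from the less variable ones, with set differences all over 1 in size and no library apart from its group. That recovery therefore does not show how the test does on these data, where EPO3 stands apart. Exact permutation of 3 against 3 libraries cannot go below p = 0.1 and was not used.

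The 42 gene lists are described by counts and medians. Members and lists were chosen with earlier results of these data known. Named genes were every gene that passed and up to 4 members per list with the smallest p. From the fit without EPO3 came the 9 rises and the 12 largest falls in which all 3 MSCEPO libraries were without overlap. Some fixed genes (Gnat1, Gfap, Epor and the like), the study's 8 genes and those in which EPO3 lay farthest from EPO1 and EPO2 were also chosen. Some of the chosen genes without a symbol are not printed. Another 40 genes (Qsox1, Mast2, Serpina3n, Mcpt1 and Guca1a among them) were named after their values were seen. Some list members are not reported here by name. Sequences are RefSeq promoters of GRCr8. Replicate numbers 1 to 3 recur in every group, but the correlations of same-numbered libraries' deviations were negative (-0.164, -0.188 and -0.370), so the numbers were not taken as pairs. Alternatives were other filters, scalings, library sets, weights and left-out libraries.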

Additional observations from a re-analysis of the deposited data

How the results depend on the processing

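The count of 7 genes that passed depended on most choices. It was 13 by the adjusted p alone, 5 with no filter on low values, 3 with all 15 libraries of the series, 12 after quantile normalization, 398 (348 of them higher) with array weights, whose estimate did not converge, and 0 by limma with the 2 groups alone (1108 genes at an unadjusted p under 0.05). With the replicate number as a block (replicate block) it was 1, Cds1, and the other 6 were lost. Leaving out 1 library gave 0 to 103. Without EPO3 the count of 103 became 286 by the adjusted p alone, 321 with the 2 groups alone, 18 with all groups, 354 with array weights and 81 with the replicate block (73 shared), and 58 to 74 without 1 Sham library. Genes without overlap numbered 2187, and 2793 to 6156 without 1 library. The causes were not tested, beyond the fewer libraries or genes that a setting holds.

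Some differences changed sign. Array weights gave 0.50 for Rpe65, 0.43 for Ccnd2, -1.44 for Crygd and -1.88 for Crygc, and quantile normalization gave 0.0054 for Ccnd2 and, without EPO3, -0.023 for Muc1. Leaving out 1 library moved Rpe65 from -0.50 to 0.20, Ccnd2 from -0.26 to 0.45, Plce1 from -0.058 to 0.36, Cryab from -0.73 to 0.38, Pik3r1 from -0.034 to 1.15, Opn1sw from -0.73 to 0.16, Crygb from -2.46 to 0.96, Crygc from -1.84 to 1.29, Crygd from -1.16 to 2.19, Lgsn from -2.38 to 0.60 and Bfsp1 from -1.78 to 0.72. Aldh3a1 was 0.77 with array weights and moved from -0.75 to 0.20. In the fit without EPO3, Trpm1 was 0.10 with the replicate block, 0.061 after quantile normalization and 0.0081 with array weights, Prkca was 0.040 with the replicate block and Aldh3a1 0.061 with array weights, and leaving out 1 Sham library moved Trpm1 from -0.061 to 0.10, Prkca from -0.16 to 0.033 and Aldh3a1 from -0.77 to 0.038. Of the 42 list medians, 27 were above 0 and 26 to 29 over the alternatives run. Those of the RPE, bipolar cell, PI3K-Akt, heat shock, lens, matrix and immediate early gene lists changed sign in at least 1 of them. The named genes' count of 0 against MSC held in every alternative run, with a smallest limma adjusted p of 0.151. The rlog values give no depth, so the precision rests on 3 libraries per group and on a spread pooled over the groups in the model.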
